A study of Saccharomyces cerevisiae with 2 samples.

Results

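The 10 genes described here are the allantoin genes DAL1, DAL2, DAL3, DAL4, DAL5, DAL7 and DAL80 together with GAP1, MEP2 and GLN1, chosen by name for their part in the use of poor nitrogen sources. They are 10 of the 6698 open reading frames (ORFs) of the deposited table, and all 10 had enough reads to be compared. Each ORF was examined with its surroundings, from 800 bp before its start to 500 bp after its end. The 10 windows hold 245 different segments of 100 bp, out of 121500 in the genome.

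RNA bound to Cbc2, a subunit of the nuclear cap-binding complex, was purified through a TAP tag from trf4Δ cells and from wild-type cells, and 1 library of each was sequenced. Both strains were SK1 diploids, the budding yeast background that sporulates with high synchrony, and both carried the tag on both copies of CBC2. The trf4Δ strain also lacked both copies of TRF4, which encodes the poly(A) polymerase of the TRAMP complex that prepares nuclear RNA for decay by the exosome. Both cultures had spent 6 h in acetate sporulation medium, which lacks a rich nitrogen source, and the comparison asks which capped RNAs accumulate when TRAMP activity is lost. The trf4Δ pre-culture in acetate medium was started at a higher cell density than the wild-type one. The libraries were sequenced on separate lanes, so lane, culture and genotype cannot be told apart, and no difference has a replicate check. In such bulk RNA, fewer cells that make a transcript and less of it per cell cannot be told apart either. Neither library preparation nor counting is described as strand-specific, so a read may come from either strand.

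Yeast cells given a good nitrogen source keep genes for poor ones silent, a control called nitrogen catabolite repression. When nitrogen runs short, the GATA-family activators Gln3 and Gat1 enter the nucleus and bind sites with the core GATAAG, where the GATA repressors Dal80 and Gzf3 compete with them. Their targets include permeases for amino acids, ammonium and allantoin, and the enzymes that break allantoin down to urea and glyoxylate. Nitrogen starvation is also a condition for entry into meiosis.

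The core GATAAG was searched on both strands in the 300 bases before each start codon of the RefSeq R64 reference, which is the S288C strain and not SK1. All 10 genes were matched by identifier, with the same ORF lengths as in the deposited table. The motif was present at least 1 time before 8 of the 10 genes, against 14.7% of the 6001 genes searched. It was present at least 2 times before 5 of the 10, against 1.63% of all genes, and at least 3 times before DAL3, DAL7 and DAL80, against 0.217%. DAL3 had 5 matches, DAL7 and DAL80 had 3 each, DAL2 and GAP1 had 2 each, and DAL4, DAL5 and MEP2 had 1 each. No match lay before DAL1 or GLN1. The stretches below are printed for DAL3, which had the most matches and the highest difference over the ORF. They are also printed for DAL80, GAP1, MEP2 and GLN1. These are the genes outside the DAL cluster of chromosome IX with segments before the start codon more than 4-fold higher in trf4Δ. The nearest such segment was centred at -204 bp in MEP2 and at -154 bp in GLN1, and segments closer to the start codon were under 4-fold. They are from R64, at chrIX:415618-415917 (minus strand) for DAL3, chrXI:506598-506897 (plus strand) for DAL80, chrXI:514763-515062 (plus strand) for GAP1, chrXIV:357153-357452 (plus strand) for MEP2 and chrXVI:641908-642207 (plus strand) for GLN1. R64 positions are not interchangeable with those of the deposited tables, which are taken here to be in SGD1.01. Each runs 5′ to 3′ up to the last base before the start codon, and capitals mark GATAAG or its complement CTTATC.
DAL3: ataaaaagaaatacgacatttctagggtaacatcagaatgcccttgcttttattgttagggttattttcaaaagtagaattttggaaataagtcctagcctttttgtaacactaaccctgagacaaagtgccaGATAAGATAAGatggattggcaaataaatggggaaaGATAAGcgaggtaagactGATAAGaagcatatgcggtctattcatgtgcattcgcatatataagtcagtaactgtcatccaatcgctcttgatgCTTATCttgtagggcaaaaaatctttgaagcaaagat
DAL80: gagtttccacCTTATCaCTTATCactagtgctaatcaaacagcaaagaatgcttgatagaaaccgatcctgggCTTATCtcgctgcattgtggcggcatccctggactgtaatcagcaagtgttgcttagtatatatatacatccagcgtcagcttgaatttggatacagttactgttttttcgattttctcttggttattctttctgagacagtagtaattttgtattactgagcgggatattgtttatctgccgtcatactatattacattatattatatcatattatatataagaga
GAP1: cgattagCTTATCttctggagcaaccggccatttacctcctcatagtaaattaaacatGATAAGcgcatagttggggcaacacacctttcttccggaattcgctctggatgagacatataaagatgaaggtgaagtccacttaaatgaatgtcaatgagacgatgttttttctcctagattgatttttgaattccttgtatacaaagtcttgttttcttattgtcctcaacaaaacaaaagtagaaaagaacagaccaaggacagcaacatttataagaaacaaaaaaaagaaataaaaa
MEP2: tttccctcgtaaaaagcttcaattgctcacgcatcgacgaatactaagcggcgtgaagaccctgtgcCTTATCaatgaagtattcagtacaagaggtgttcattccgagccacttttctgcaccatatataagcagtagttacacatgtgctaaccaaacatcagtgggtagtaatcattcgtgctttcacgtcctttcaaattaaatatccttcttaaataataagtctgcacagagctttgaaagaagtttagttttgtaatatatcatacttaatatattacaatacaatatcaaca
GLN1: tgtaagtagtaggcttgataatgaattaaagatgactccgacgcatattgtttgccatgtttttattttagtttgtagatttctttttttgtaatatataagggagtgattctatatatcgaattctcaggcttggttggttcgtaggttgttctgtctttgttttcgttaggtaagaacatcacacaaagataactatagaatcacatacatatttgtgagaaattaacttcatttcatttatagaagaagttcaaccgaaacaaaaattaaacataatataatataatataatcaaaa
In DAL3 the first bases of the matches lie at positions -167, -162, -131, -113 and -37, counted back from the start codon, and the first pair share a base. In DAL80 they lie at -290, -283 and -227, in GAP1 at -293 and -242, and in MEP2 at -233. A match describes the letters in this window and is not evidence of binding.

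The libraries held 29687088 segment reads in trf4Δ, against 22092372 in wild type, and wild-type values were multiplied by 1.344 for segments and 1.345 for ORFs to equal totals. All read values of wild type below are scaled in this way. The deleted gene, listed as PAP2 (YOL115W), had 1 read in trf4Δ, against 465 scaled reads in wild type, at least 155-fold lower. Over all 6246 ORFs compared the median log2 difference, trf4Δ minus wild type, was -0.97, so differences are also given relative to this value. The 8 meiosis markers examined had 700 to 16134 reads in trf4Δ and 1957 to 22472 in wild type. Their median log2 difference was -1.29, 2 of the 8 lay above the all-ORF median, and none passed 4-fold. The 6 markers of growth on rich medium summed to 23550 reads in trf4Δ, against 6121 in wild type, and none had 0 reads. Their median log2 difference was 0.36, and 4 of the 6 lay above 0. Above the all-ORF median lay 5 of the 6, all but the cyclin gene CLN2 at -1.11. The sum rests on the 1 that was more than 4-fold higher, the low-affinity glucose transporter gene HXT3, with 20010 reads in trf4Δ, against 2815 in wild type. The part of this difference in the values of the nitrogen genes was not tested.

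Among the 10 genes, DAL3 was 13.2-fold higher in trf4Δ and GLN1 was 5.14-fold lower, while the other 8 differed by less than 4-fold. A difference was called when it exceeded 4-fold, and ORFs were compared when at least 1 library had more than 64 reads. The 1 of 10 members called higher stands against 8.09% of all ORFs compared, and the 1 of 10 called lower against 10.6%. The median log2 difference of the 10 was -0.28, against -0.97 for all ORFs, and 8 of the 10 lay above the all-ORF median. With equal totals DAL3, DAL4, GAP1 and MEP2 were higher in trf4Δ, and with the all-ORF median set to 0 DAL5, DAL1, DAL7 and DAL80 also came out higher. DAL2 and GLN1 were lower by either scaling. With the median set to 0, DAL4 and GAP1 also passed 4-fold on the higher side, where 15.1% of all ORFs then lay, while GLN1, at -1.39, no longer passed it. Intervals given in square brackets are exact 95% intervals, Poisson for levels and binomial for differences and shares, and describe the error of counting alone, as reads can be PCR duplicates or be counted 2 times at a segment border.

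**Figure D1:**
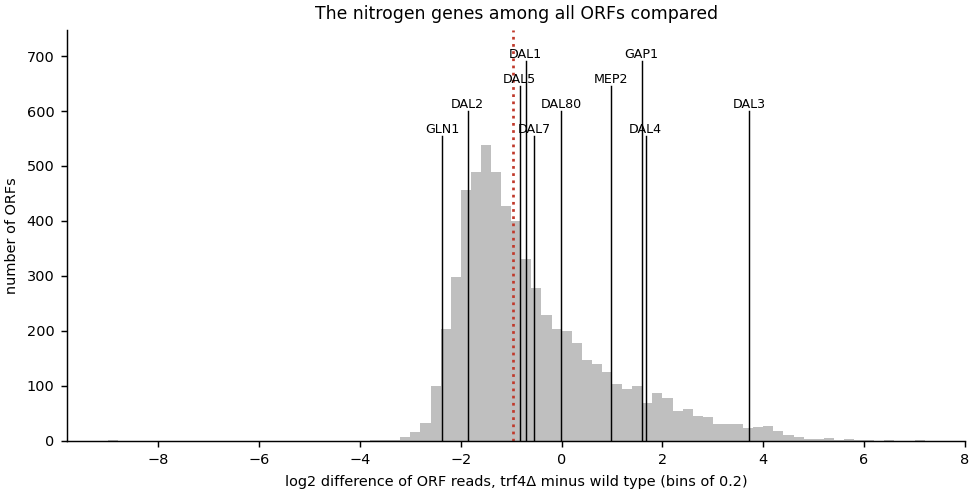
Number of ORFs (vertical axis) by log2 difference of reads, trf4Δ minus wild type after scaling to equal totals (horizontal axis, bins of 0.2), for all 6246 ORFs compared. Black lines mark the 10 nitrogen genes and the dotted line the all-ORF median of -0.97. DAL3 at 3.72 lies in the right tail and GLN1 at -2.36 in the left.

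Per kb of ORF, the 10 genes spanned a 37.9-fold range in trf4Δ and a 102-fold range in wild type. In trf4Δ the order was DAL3 with 3077 reads per kb, GLN1 with 2349, GAP1 with 2239, DAL2 with 1131, DAL4 with 742, MEP2 with 381, DAL80 with 356, DAL1 with 270, DAL5 with 93.1 and DAL7 with 81.1. The neighbours GLN1 and GAP1, MEP2 and DAL80, and DAL5 and DAL7 had overlapping intervals in trf4Δ. In wild type the order was GLN1 with 12082 reads per kb, DAL2 with 4107, GAP1 with 746, DAL1 with 442, DAL80 with 359, DAL4 with 234, DAL3 with 233, MEP2 with 193, DAL5 with 166 and DAL7 with 118. There, DAL1 and DAL80 overlapped, as did each neighbour in the run DAL4, DAL3, MEP2 and DAL5. DAL3 thus stood first in trf4Δ and in the lower range in wild type, while DAL7 was last in both. The median of all ORFs compared was 560 reads per kb in trf4Δ, a level that 5 of the 10 exceeded, and 809 in wild type, which only GLN1 and DAL2 exceeded.

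**Figure D2:**
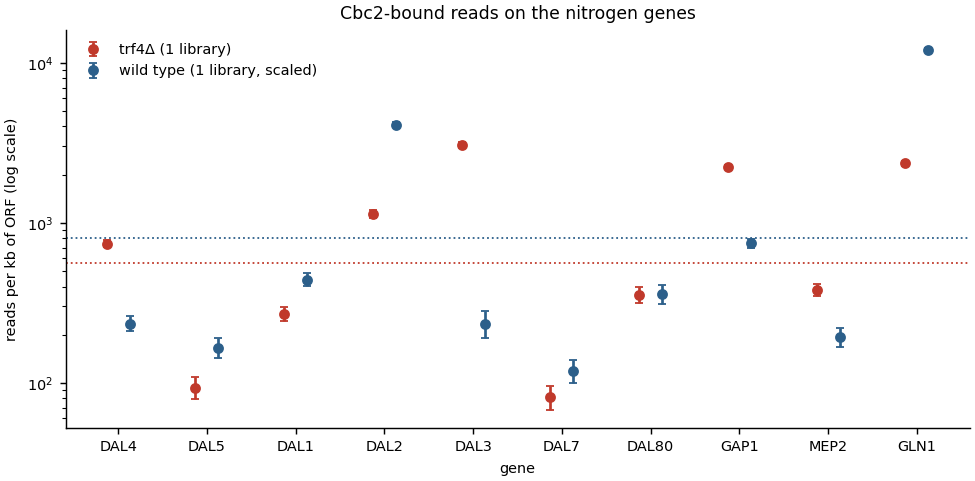
Reads per kb of ORF (vertical axis, log scale) for each of the 10 genes (horizontal axis) in the trf4Δ library (red, left) and in the wild-type library scaled to the same total (blue, right). Bars are exact 95% Poisson intervals, some smaller than the points, and dotted lines are the medians of all ORFs compared, 560 in trf4Δ, against 809 in wild type. DAL3, DAL4, GAP1 and MEP2 are higher in trf4Δ, and GLN1 and DAL2 show the widest gaps in the other direction.

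The reads of several genes were not spread evenly along the ORF. Each ORF was therefore split into 3 equal parts, by the midpoints of its 100 bp segments, and set beside its upstream 800 bp and downstream 500 bp. The split was chosen after the profiles had been seen. Parts and flanks were compared where either library had at least 64 reads, and segment sums can exceed the ORF value because reads near a border appear in both neighbouring segments and edge segments reach past the ORF.

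In the last part of the ORF, 4 of 10 members were more than 4-fold higher in trf4Δ, namely DAL3, GAP1, MEP2 and DAL4, against 12.9% of the ORFs compared. In the middle part 1 of 9 was, DAL3, against 5.26%, and 1 of 9 was more than 4-fold lower, GLN1, against 15.5%. In the first part 2 of 10 were more than 4-fold lower, DAL1 and GLN1, against 17.2%. The gap between the last and the middle part exceeded 2 on the log2 scale in 4 of 9 members, against 11.5% of 5622 ORFs. It was 3.73 in DAL1, 2.86 in DAL4, 2.79 in GAP1 and 2.13 in MEP2, with a median of 1.09 over the 9 members and 0.27 over all ORFs. Upstream, 2 of 10 members were more than 4-fold higher, DAL7 and GLN1, against 17.7% of ORFs, and 2 of 10 were more than 4-fold lower, DAL1 and DAL4, against 6.72%, in stretches that these divergent neighbours largely share. Downstream, DAL5, GAP1 and MEP2 were more than 4-fold higher, 3 of 10 against 10.8%. The members called change when segments that overlap another ORF are left out. DAL7 then stood at 0.05 upstream and was not called, MEP2 at 2.07 upstream was called, and DAL1 at 2.33 was called downstream.

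**Figure D3:**
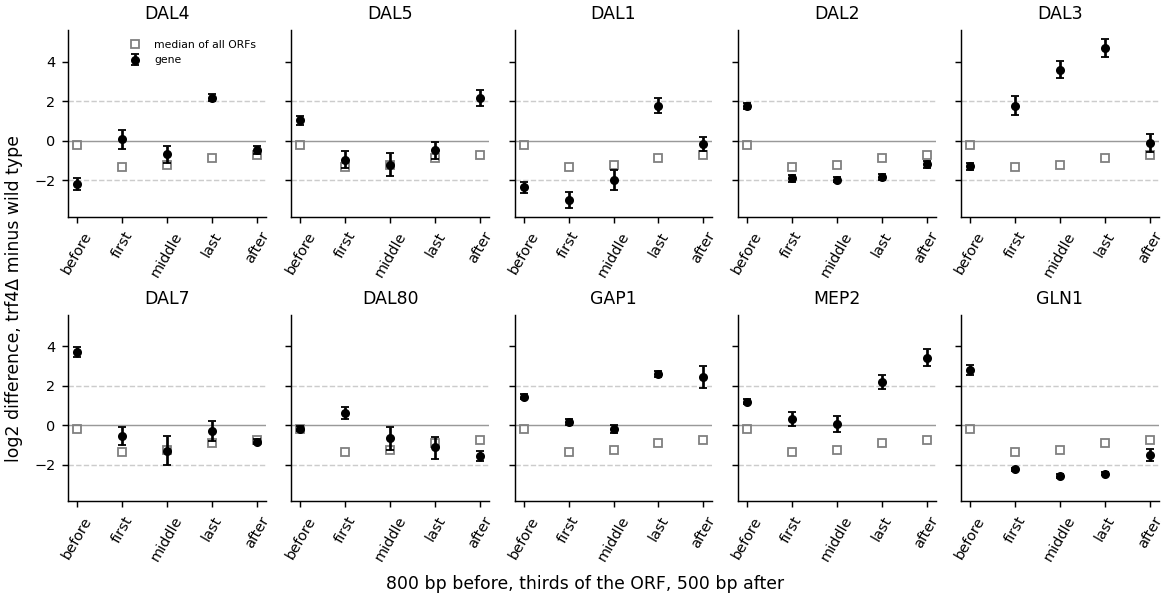
Log2 difference, trf4Δ minus wild type, of reads in the 800 bp before each ORF, in its first, middle and last part and in the 500 bp after it (horizontal axis), 1 panel per gene. Filled points are the gene with exact 95% binomial intervals, open squares are the medians of all ORFs compared, and dashed lines mark 4-fold. DAL4, DAL1, GAP1 and MEP2 show a step up from the middle to the last part, DAL3 is high in all 3 parts of its ORF but not in its flanks, and GLN1 is high before the ORF and low along it. The upstream points of DAL7 and DAL2 include reads over the end of the neighbouring DAL3 and DAL4, and that of DAL3 includes reads over the neighbouring MGA2. The middle part of DAL7 had under 64 reads in both libraries and was not counted.

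Of the 245 segments in the windows, 125 had at least 64 reads in either library. More than 4-fold higher in trf4Δ were 33 of these, or 26.4%, against 16.3% of such segments in the genome. More than 4-fold lower were 25, or 20%, against 16.6%. All 7 of the different segments of MEP2 and all 8 of GAP1 were on the higher side, whereas DAL1 had 3 higher and 9 lower and GLN1 had 3 higher and 10 lower.

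**Figure D4:**
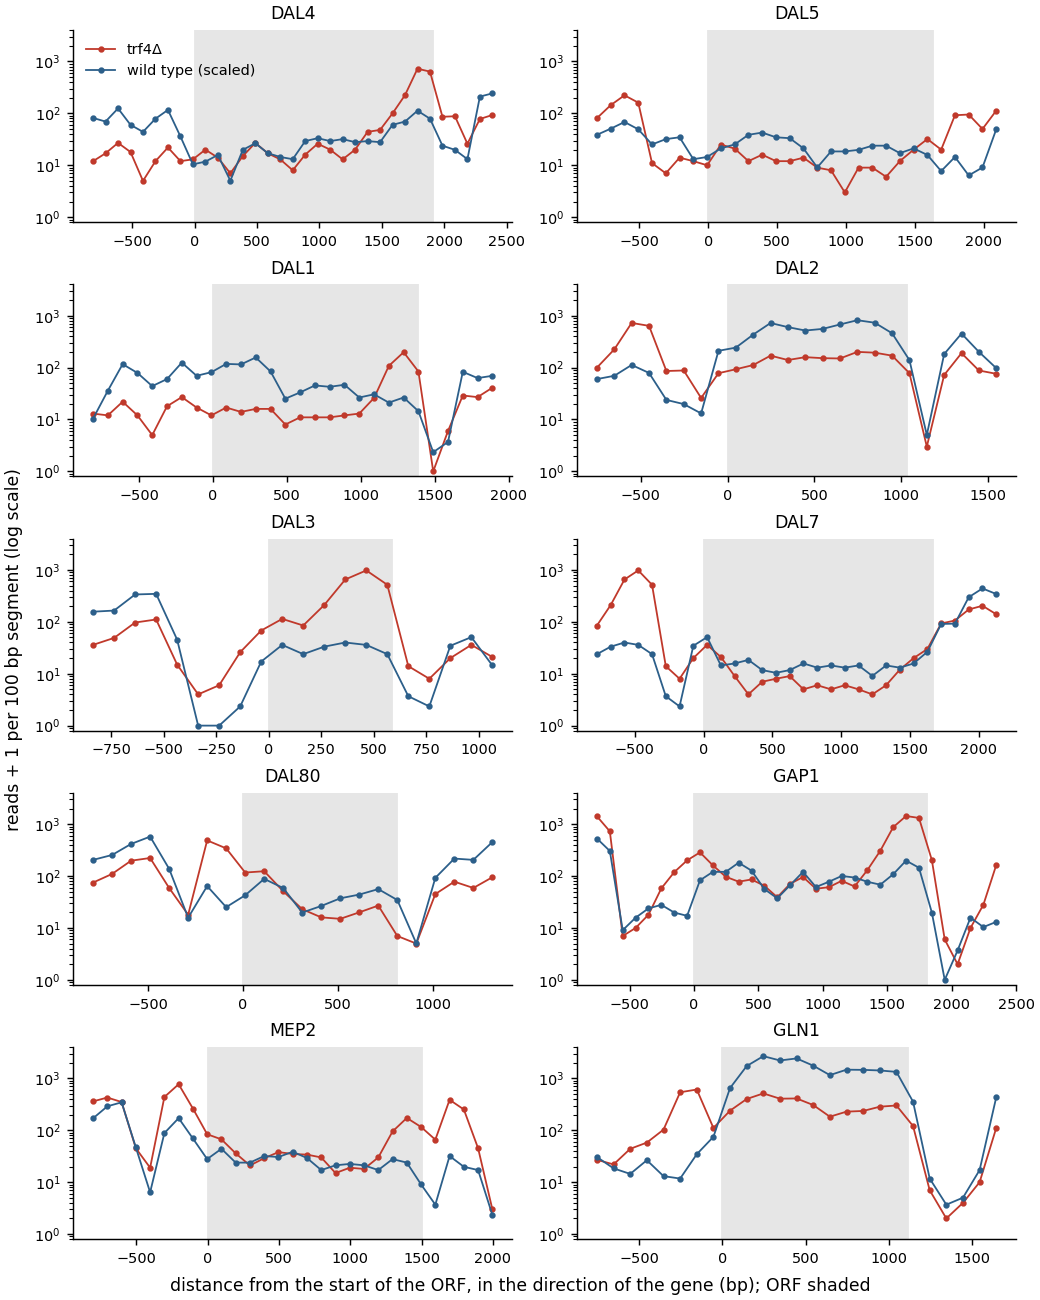
Reads plus 1 in each 100 bp segment (vertical axes, log scale) by distance from the start of the ORF in the direction of the gene (horizontal axes, bp), for trf4Δ (red) and scaled wild type (blue), 1 library each. Grey marks the ORF. In GAP1, MEP2, DAL4 and DAL1 the lines part near the end of the ORF, in DAL3 along most of it, and in GLN1 they cross near the start.

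Uptake of allantoin and allantoate is the task of DAL4 and DAL5. DAL4 (YIR028W, chromosome IX, 408465 to 410372, plus strand), the allantoin permease, had 1415 reads in trf4Δ, against 446 in wild type, a log2 difference of 1.66 [1.49, 1.84]. With equal totals, the excess lay at its end. The first part had 94 reads in trf4Δ, against 90.0 in wild type, the middle part 90 in trf4Δ, against 145 in wild type, and the last part 1794 in trf4Δ, against 399 in wild type. The last part held 90.7% of the ORF's segment reads in trf4Δ [89.3, 91.9] and 62.9% in wild type [58.4, 67.3]. Segments centred 1786 and 1886 bp from the start had 725 and 637 reads in trf4Δ, against 112 and 77.9 in wild type. Before the ORF DAL4 was lower, with 118 reads in trf4Δ, against 532 in wild type, in a stretch that it shares with the upstream side of the divergent DAL1.

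DAL5 (YJR152W, chromosome X, 719660 to 721291, plus strand), the allantoate permease, had 152 reads in trf4Δ, against 270 in wild type, a log2 difference of -0.83 [-1.14, -0.52]. Relative to the median ORF this is 0.14, and none of the 3 parts of its ORF passed 4-fold. The 500 bp after the ORF went the other way, with 365 reads in trf4Δ, against 82.0 in wild type, a log2 difference of 2.15 [1.76, 2.57]. Segments centred 1791 and 1891 bp from the start, past the end of the ORF, had 91 and 94 reads in trf4Δ, against 13.4 and 5.38 in wild type. The 800 bp before the ORF had 574 reads in trf4Δ, against 280 in wild type, under 4-fold.

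Breakdown of allantoin runs from the allantoinase DAL1 through the allantoicase DAL2 and the ureidoglycolate-cleaving enzyme DAL3, which releases urea and glyoxylate, to the malate synthase DAL7, which uses the glyoxylate. The 4 genes lie in 1 cluster but had log2 differences from -1.86 to 3.72. DAL1 (YIR027C, chromosome IX, 406257 to 407639, minus strand) had 373 reads in trf4Δ, against 612 in wild type, a log2 difference of -0.71 [-0.92, -0.51], or 0.26 relative to the median ORF. Its first and last parts differed in opposite directions. The first part had 59 reads in trf4Δ, against 470 in wild type, a log2 difference of -2.99 [-3.42, -2.59]. The last part had 341 in trf4Δ, against 101 in wild type, a log2 difference of 1.76 [1.39, 2.14]. The share of ORF reads in the last part was 76.1% in trf4Δ [71.9, 80.0] and 13.3% in wild type [10.6, 16.4], the widest gap in share among the 10 genes. In the 500 bp after DAL1, segments clear of other ORFs had 88 reads in trf4Δ, against 17.5 in wild type.

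DAL2 (YIR029W, chromosome IX, 410804 to 411835, plus strand) was, per kb, the second highest of the 10 genes in wild type. It had 1167 reads in trf4Δ, against 4239 in wild type, a log2 difference of -1.86 [-1.96, -1.76], or 3.63-fold lower. The difference was even along the ORF, with -1.91 in the first part, -1.98 in the middle and -1.84 in the last. The last part held 36.7% of its reads in trf4Δ, against 34.9% in wild type. The 800 bp before it had 1959 reads in trf4Δ, against 581 in wild type, but these include the end of DAL4, and without segments that overlap another ORF the values were 274 in trf4Δ, against 263 in wild type.

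DAL3 (YIR032C, chromosome IX, 415027 to 415614, minus strand) had 1809 reads in trf4Δ, against 137 in wild type, a log2 difference of 3.72 [3.43, 4.02]. This is higher than in 98.1% of the ORFs compared. The excess grew along the ORF, at 1.77 in the first part, 3.60 in the middle and 4.69 in the last. The last part had 1496 reads in trf4Δ, against 57.8 in wild type, 25.9-fold higher. The segment centred 464 bp from the start had 979 reads in trf4Δ, against 34.9 in wild type, and its neighbours at 364 and 564 bp had 654 and 517 in trf4Δ, against 39.0 and 22.8 in wild type. The next segment, at 664 bp, past the end of the ORF, had 13 reads in trf4Δ, against 2.69 in wild type. Before the start, the segment at -36 bp had 67 reads in trf4Δ, against 16.1 in wild type. The 800 bp upstream had a log2 difference of -1.30, but they include reads over MGA2. Without segments over another ORF they had 114 reads in trf4Δ, against 61.8 in wild type, a log2 difference of 0.88. The last 300 bases of the ORF, where the reads of trf4Δ were most frequent, read in R64 at chrIX:415030-415329 (minus strand) as follows, with the stop codon in capitals.
DAL3 end of ORF: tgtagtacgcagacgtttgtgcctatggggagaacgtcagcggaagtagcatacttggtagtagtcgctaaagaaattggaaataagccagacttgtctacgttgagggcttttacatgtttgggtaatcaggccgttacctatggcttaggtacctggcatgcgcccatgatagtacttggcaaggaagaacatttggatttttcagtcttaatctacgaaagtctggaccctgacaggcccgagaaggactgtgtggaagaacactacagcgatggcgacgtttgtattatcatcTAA

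DAL7 (YIR031C, chromosome IX, 413012 to 414676, minus strand) was the least abundant per kb in both libraries. It had 135 reads in trf4Δ, against 196 in wild type, a log2 difference of -0.54 [-0.89, -0.19], or 0.43 relative to the median ORF. The first part had 79 reads in trf4Δ, against 116 in wild type, and the last 71 in trf4Δ, against 87.3 in wild type. The 800 bp before it had 2483 reads in trf4Δ, against 189 in wild type, a log2 difference of 3.71, but this stretch covers the end of DAL3, and without segments over another ORF it had 39 reads in trf4Δ, against 37.6 in wild type. The unnamed ORF YIR030W-A overlaps DAL7 by 268 bp on the other strand, and reads of the pair cannot be separated. Malate synthase is also encoded by MLS1, which had 5083 reads in trf4Δ, against 3791 in wild type, a log2 difference of 0.42.

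The DAL cluster of chromosome IX, from the lower end of DAL1 to the upper end of DAL3, spans 9358 bp and also holds DCG1, a gene of unknown role in this pathway. It had 8565 segment reads in trf4Δ, against 10996 in wild type. Cryptic unstable transcripts (CUTs) are short capped RNAs that the exosome normally removes, and were called here as runs of at least 300 bp in which segments more than 4-fold higher in trf4Δ start no more than 300 bp apart, with a mean log2 of trf4Δ reads above 6. The cluster held 3 CUTs, at the end of DAL1, at the end of DAL4 and over DAL3. These occupied 16 of its 95 segments and took 53.3% of the cluster's reads in trf4Δ, against 4.52% in wild type. CUTs were chosen by the same excess in trf4Δ, so the direction of this contrast follows from the choice. The other segments, left after that choice, had 4000 reads in trf4Δ, against 10499 in wild type, a log2 difference of -1.39. The median log2 difference of single genome segments, CUTs included, was -1.09. It was taken where either library had at least 64 reads and both had some.

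**Figure D5:**
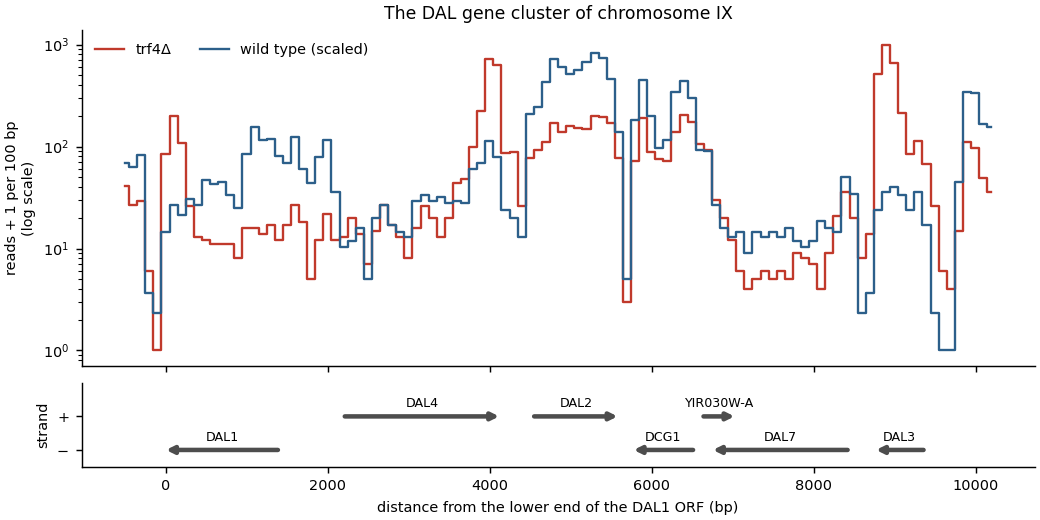
Reads plus 1 in each 100 bp segment (upper vertical axis, log scale) across the DAL cluster, by distance from the lower end of the DAL1 ORF (horizontal axis, bp), for trf4Δ (red) and scaled wild type (blue). Arrows below show the ORFs and their strand. The red line stands more than 4-fold above the blue at the end of DAL1, around the end of DAL4 and over most of DAL3, and lies below it over most of DAL1 and over DAL2.

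DAL80 (YKR034W, chromosome XI, 506540 to 507349, plus strand), the GATA repressor of these genes, did not differ beyond counting error in total. It had 288 reads in trf4Δ, against 290 in wild type, a log2 difference of -0.01 [-0.27, 0.25], or 0.96 relative to the median ORF. Its reads were shifted towards the start. The first part had 289 reads in trf4Δ, against 187 in wild type, a log2 difference of 0.63 [0.33, 0.93], and the last part 45 in trf4Δ, against 98.1 in wild type, a log2 difference of -1.12 [-1.69, -0.57]. The last part held 11.7% of reads in trf4Δ [8.65, 15.3] and 26.8% in wild type [21.7, 32.5]. Just before the ORF, segments centred at -189 and -89 bp had 486 and 341 reads in trf4Δ, against 63.2 and 24.2 in wild type. Of the 3 GATAAG matches in the printed stretch, that at -227 lies within the segment centred at -189 bp. Those at -290 and -283 lie outside both segments, and the segment centred at -289 bp had 17 reads in trf4Δ, against 14.8 in wild type. The unnamed ORF YKR032W overlaps the stretch with the excess, with 675 reads in trf4Δ, against 92.8 in wild type, and YKR033C overlaps DAL80 by 407 bp on the other strand, with 243 in trf4Δ, against 163 in wild type. Strand was not recorded, so the reads of DAL80 and YKR033C cannot be separated.

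GAP1 (YKR039W, chromosome XI, 514705 to 516513, plus strand), the general amino acid permease, had 4051 reads in trf4Δ, against 1349 in wild type, a log2 difference of 1.59 [1.49, 1.69], or 3.00-fold higher. The first part had 767 reads in trf4Δ, against 683 in wild type, and the middle part 399 in trf4Δ, against 458 in wild type. The last part had 4129 in trf4Δ, against 685 in wild type, a log2 difference of 2.59 [2.46, 2.73]. Thus the excess over wild type lay in the last part, which held 78.0% of the ORF's reads in trf4Δ [76.8, 79.1] and 37.5% in wild type [34.9, 40.2]. Segments centred 1546, 1646 and 1746 bp from the start had 875, 1436 and 1319 reads in trf4Δ, against 108, 198 and 144 in wild type. Reads then dropped past the end, to 5 in trf4Δ, against 0 in wild type in the segment at 1946 bp. Before the start, segments at -154 and -54 bp had 118 and 200 reads in trf4Δ, against 18.8 and 16.1 in wild type.

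MEP2 (YNL142W, chromosome XIV, 357455 to 358954, plus strand), the high-affinity ammonium permease, had 571 reads in trf4Δ, against 289 in wild type, a log2 difference of 0.98 [0.75, 1.21]. With equal totals its middle part did not differ beyond counting error, with 128 reads in trf4Δ, against 124 in wild type. The last part had 427 reads in trf4Δ, against 94.1 in wild type, a log2 difference of 2.18 [1.82, 2.57]. The 500 bp after the ORF showed the largest downstream difference of the 10 genes, with 748 reads in trf4Δ, against 69.9 in wild type, a log2 difference of 3.42 [3.01, 3.85]. Segments centred 1696 and 1796 bp from the start, past its end, had 386 and 251 reads in trf4Δ, against 30.9 and 18.8 in wild type. On the other side of the gene, in and just beyond the stretch printed above, segments at -304, -204 and -104 bp had 437, 772 and 262 reads in trf4Δ, against 87.3, 171 and 68.5 in wild type. The 800 bp before MEP2 differed by 1.20 on the log2 scale as a whole, and by 2.07 without the segments that overlap the unnamed ORF YNL143C. With equal totals, MEP2 thus had more reads in trf4Δ on each side of its ORF. The first and middle parts, at 0.32 and 0.05, did not differ beyond counting error at that scaling. Both lay above the all-ORF medians of -1.34 and -1.26 for those parts, and the whole ORF was 1.95 above the median ORF.

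GLN1 (YPR035W, chromosome XVI, 642205 to 643317, plus strand), the glutamine synthetase, which fixes ammonium into glutamine, was per kb the most abundant of the 10 genes in wild type. It had 2614 reads in trf4Δ, against 13447 in wild type, a log2 difference of -2.36 [-2.43, -2.30], lower than in all but 2.93% of the ORFs compared. The difference was -2.23 in the first part, -2.57 in the middle and -2.44 in the last, and the last part held 29.9% of reads in trf4Δ and 31.1% in wild type. Before the ORF the order was the opposite. The 800 bp upstream had 1509 reads in trf4Δ, against 216 in wild type, a log2 difference of 2.80 [2.57, 3.05]. Segments at -254 and -154 bp, within the printed stretch, had 540 and 610 reads in trf4Δ, against 10.8 and 33.6 in wild type, while those at 146 and 246 bp inside the ORF had 400 and 513 in trf4Δ, against 1729 and 2686 in wild type. No other ORF of the table lies in this upstream stretch.

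A CUT lay in the window of 9 of the 10 genes, all but DAL80, against 42.0% of the windows of 6666 ORFs and 43.9% of those of 3489 ORFs within the length range of the members. The 9 windows hold 8 different CUTs, out of 1573 on the nuclear chromosomes, because neighbouring DAL genes share some. With an 8-fold cut-off per segment, 5 of the 10 genes had a CUT in the window. With only adjacent segments joined, 7 of the 10 did. The shares of all windows at these settings are not given, and the 42.0% does not apply to them. The CUT before GLN1, from -404 to -105 bp relative to its start, had 1252 reads in trf4Δ, against 56.4 in wild type, 22.2-fold higher, with a mean log2 difference of 4.30. The CUT at the end of MEP2 had 989 reads in trf4Δ, against 83.3 in wild type, with a mean of 3.74. GAP1 had a CUT over its end with 4145 reads in trf4Δ, against 535 in wild type, a mean of 2.79, and another that begins 488 bp past the end, with 4898 in trf4Δ, against 516 in wild type, a mean of 3.13. The CUT over DAL3, which reaches into the window of DAL7, had 2674 reads in trf4Δ, against 208 in wild type, a mean of 3.23. Smaller in reads were those after DAL5, with 234 in trf4Δ, against 26.9 in wild type, and at the end of DAL1, with 387 in trf4Δ, against 59.1 in wild type. The CUT at the end of DAL4, also in the window of DAL2, had 1534 reads in trf4Δ, against 231 in wild type, a mean of 2.65. The CUTs of DAL1, DAL4 and MEP2 and the first of GAP1 covered the end of an ORF. Those after DAL5 and GAP1 lay past one, that of DAL3 spanned the whole ORF, and that of GLN1 lay before the start. The DAL3 span was joined across segments at 64 and 164 bp that were 3.23-fold and 3.68-fold higher. Its segments past the end of the ORF had 13 and 7 reads in trf4Δ, and its mean log2 of trf4Δ reads was 6.17. Only GLN1 and MEP2 exceeded the genome median of 3.38 for the mean log2 difference of a CUT.

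Of 41 other nitrogen genes examined, 0 were more than 4-fold higher in trf4Δ and 2 were more than 4-fold lower, the glutamate dehydrogenase GDH1 at -2.22 and the vacuolar protease PEP4 at -2.59. Their median log2 difference was -0.87, near the -0.97 of all ORFs and below the -0.28 of the 10 genes. Among the 9 transporters the median was -0.79, with the highest value of 1.39 in the GABA permease UGA4 and the lowest of -1.93 in the peptide transporter OPT2. Among the 14 enzymes it was -0.92, with the GABA transaminase UGA1 highest at 1.49 and GDH1 lowest. DCG1, inside the DAL cluster, had 705 reads in trf4Δ, against 1529 in wild type, a log2 difference of -1.12. The 7 vacuolar and autophagy genes had a median of -1.34, from -2.59 in PEP4 to 1.51 in the aminopeptidase LAP4.

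The 11 regulators had a median of -0.96, from -1.84 in DAL81, an activator of allantoin genes, to 0.69 in UGA3, an activator of GABA genes. The GATA activator GAT1 had 960 reads in trf4Δ, against 951 in wild type, a log2 difference of 0.01, while GLN3 had 289 in trf4Δ, against 869 in wild type, a log2 difference of -1.59. The repressor GZF3 stood at -0.96, URE2, which holds Gln3 in the cytoplasm, at -1.02, and DAL82, which mediates induction by allantoin, at -0.79. None of these 6, DAL81 included, passed 4-fold in either direction. In the last part of the ORF 3 of the 41 were more than 4-fold higher, UGA1, UGA3 and LAP4, against 12.9% of all ORFs, and the gap between last and middle part exceeded 2 in 3 of 41, UGA4, UGA1 and LAP4, against 11.5%. A CUT lay in the window of 26 of the 41, against 42.0% of all windows, a share that is not matched to the lengths of these genes.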

How the data were processed

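Cbc2-bound RNA of 1 trf4Δ and 1 wild-type culture was sequenced. The authors used Bowtie with 2 references, SGD1.01 for uniquely mapping reads and an assembled SK1 genome that also took multiply mapping reads at random, and SeqMonk to sum them. The sources do not say which mapping the tables hold. Trim Galore 0.3.5 and Bowtie 0.12.7 are named in the submitters' processing notes. The authors deposited log2 values. The deposited log2 values of segments are of unnormalised whole reads, with 0.9 for 0 reads, and in the ORF table the authors scaled wild type by 1.345.

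The log2 values were turned back into reads. Every value was within 0.02 of a whole read, or within a small proportional tolerance where reads were many, or was the value that stands for 0 reads. The 139 segments of 37S pre-rRNA, with 0 reads, were left out. Total-read scaling, the 4-fold cut-off and the minimum log2 of 6 for ORFs, which kept 6246 of 6698, follow the study's methods. The rules for CUTs also follow them, except that CUTs were not joined across chromosome ends. CUTs were called on the nuclear chromosomes only, and the 1573 called here differ in number from those the paper annotated. With 1 library per genotype no test was made. Steps were tested on simulated data. In the calls of segments, parts and flanks, and for PAP2, folds against 3 reads or fewer used 3 reads and are lower bounds. The CUT rules used 0.9 for 0 reads and no such floor. The extents and mean log2 differences of CUTs are therefore not lower bounds.

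The members, lists, motif and alternatives were chosen with earlier results of these data known. All 10 members are named, and of the other nitrogen genes DCG1, 6 regulators and the highest and lowest of each group. Alternatives changed scaling, filters, cut-offs, windows and the reads used. Calculations used numpy 2.4.6, scipy 1.17.1 and pandas 2.3.3 under Python 3.11.15, and figures matplotlib 3.10.9.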

Additional observations from a re-analysis of the deposited data

How the results depend on the processing

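With the median log2 difference set to 0, the members more than 4-fold higher in trf4Δ numbered 3 in place of 1 and those lower 0 in place of 1, against 15.1% and 0.192% of all ORFs. The members' median became 0.70 in place of -0.28, 6 members in place of 2 had a higher upstream flank, and 0 in place of 1 had a lower middle part. Of the segments in the windows, 50 in place of 33 were then higher and 1 in place of 25 lower, and of the other nitrogen genes 3 in place of 0 were higher and 0 in place of 2 lower. With a 2-fold cut-off 3 members were higher and 2 lower, and 3 other nitrogen genes were higher and 18 lower. At that cut-off 50 segments were higher and 53 lower. No share over all ORFs or segments is given at the 2-fold cut-off. With the median set to 0, none is given for flanks, parts or segments. Counts without such a share are not read as results about these genes. From segments wholly inside the ORF the members' median was -0.51. An 8-fold cut-off per segment left 5 members with a CUT in place of 9, and joining of adjacent segments only left 7. No share of all windows is given for either. The direction of no called value reversed, but the changes of scaling were smaller than the 4-fold cut-off and could not reverse one. Values under 4-fold did change sign. DAL4 went from 1.66 over the ORF to -0.69 in the middle part, and GAP1 from 1.59 to -0.20. The downstream flank of DAL1 went from -0.18 to a called 2.33 without segments over another ORF. The split of ORFs into 3 or 5 parts, the gap between last and middle part and the middle part alone were chosen after seeing the data. Segments with under 64 reads in both libraries, which include all those within the ORF of DAL5, were too shallow to compare. No paired analysis was possible because each genotype had 1 library, and for the same reason no replicate could be left out.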

Other observations

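Upstream of the other nitrogen genes, 13 of the 40 compared were more than 4-fold higher in trf4Δ, against 17.7% of all ORFs. The genes named here were chosen after their values were seen. The 800 bp before GDH2, the catabolic glutamate dehydrogenase, had 32884 reads in trf4Δ, against 1047 in wild type, a log2 difference of 4.97. The same stretch of the GABA permease UGA4 had 19151 reads in trf4Δ, against 535 in wild type, that of the ammonium permease MEP1 had 17739 in trf4Δ, against 856 in wild type, and that of the urea permease DUR3 had 13200 in trf4Δ, against 748 in wild type. Over the ORFs themselves GDH2 had a log2 difference of -0.83, DUR3 -0.02, MEP1 0.65 and UGA4 1.39. The 500 bp after the aminopeptidase LAP4 had 8870 reads in trf4Δ, against 274 in wild type. Overlap of these stretches with neighbouring genes was not tested.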
